A study of Mus musculus with 12 samples.

Results

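In ventricles of the young mouse heart, 1308 Meis1 peaks lay in gene promoters without touching a Hoxb13 peak, and they are described here with their genes, positions and sequence. They were chosen by their measured places alone. A peak of the deposited Meis1 list was taken when its deposited annotation class was a promoter, within 1000 bp of a transcription start site, and when it shared not even 1 bp with any peak of the deposited Hoxb13 list. This left 1308 of 2056 Meis1 promoter peaks, or 63.6%, out of 30534 Meis1 peaks in all. The other 748 promoter peaks overlapped a Hoxb13 peak and serve as the comparison. The Meis1 precipitates (3 libraries, antibody from Santa Cruz) and the Hoxb13 precipitates (3 libraries, antibody from GeneTex) came from ventricular tissue of outbred CD-1 mice aged 15 days after birth, each with 3 libraries of input chromatin. The labels name the same strain and age for all groups and give no genotype and no treatment. By the protocols the chromatin of 3 hearts was divided between the antibodies, whereas the titles number the libraries of each factor separately. Whole ventricles hold muscle cells, fibroblasts, vessel cells and blood cells, and the cell type behind a peak cannot be told apart. The files hold 1 peak list per factor with no value per library, so no value below has a spread between hearts, read depth is unknown, and intervals and p-values describe the lists only.

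Meis1 belongs to the TALE class of homeobox factors, which is named for the extra amino acids in a loop of its DNA-binding domain. It binds the motif TGACAG and often pairs with Pbx proteins, other TALE factors, and through them with Hox proteins. In the mouse heart Meis1 is known as a factor that limits the proliferation of muscle cells after birth, and Hoxb13 as its partner in that role.

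The peak strength used below is the authors' deposited signal value, 1 per peak, and the summit is the position of highest signal within the peak. To show what lies under these summits, 61 bases centred on the summit are printed for 8 members and 3 shared peaks. They were taken from RefSeq promoter sequences (GRCm38.p6, whose primary coordinates are those of mm10), run 5′ to 3′ on the strand of the gene, and stay upstream of the RefSeq start site. Capitals mark TGACAG or its reverse complement CTGTCA. The members Cacna1c, Lrrc10 and Mkks are among the strongest, and Rorb is a clock gene with 11 Meis1 peaks. Popdc2, whose member of strength 160 stands between Lrrc10 and Mkks and held no TGACAG in these bases, is not printed. Zfp712, a zinc finger gene, Pabpn1, which encodes a nuclear protein that binds poly(A) tails, and Dpf3, a subunit of a chromatin remodelling complex, were picked after their sequences were seen, for motifs near the summit, and Mylk3 as a strong peak with no such motif. The shared peaks are 3 of the strongest of their set.
Cacna1c, chr6:119196554-119196614, minus strand: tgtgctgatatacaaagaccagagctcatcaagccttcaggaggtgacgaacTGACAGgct
Lrrc10, chr10:117045232-117045292, plus strand: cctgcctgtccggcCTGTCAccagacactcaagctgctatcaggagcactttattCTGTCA
Mkks, chr2:136891442-136891502, minus strand: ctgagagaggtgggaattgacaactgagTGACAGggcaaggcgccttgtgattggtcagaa
Zfp712, chr13:67061262-67061322, minus strand: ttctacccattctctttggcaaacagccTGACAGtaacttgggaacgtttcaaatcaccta
Pabpn1, chr14:54893917-54893977, plus strand: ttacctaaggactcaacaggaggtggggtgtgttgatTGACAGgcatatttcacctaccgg
Dpf3, chr12:83487846-83487906, minus strand: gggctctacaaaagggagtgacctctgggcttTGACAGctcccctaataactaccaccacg
Rorb, chr19:19111255-19111315, minus strand: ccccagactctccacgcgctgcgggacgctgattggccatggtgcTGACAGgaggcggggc
Mylk3, chr8:85365407-85365467, minus strand: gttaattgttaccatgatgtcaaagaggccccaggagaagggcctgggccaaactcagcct
1700096K18Rik (shared with Hoxb13), chr5:25529826-25529886, plus strand: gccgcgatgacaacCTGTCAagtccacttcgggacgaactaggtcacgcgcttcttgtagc
Zfp68 (shared with Hoxb13), chr5:138619857-138619917, minus strand: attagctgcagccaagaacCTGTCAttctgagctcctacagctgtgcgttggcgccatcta
Tnnt2 (shared with Hoxb13), chr1:135836097-135836157, plus strand: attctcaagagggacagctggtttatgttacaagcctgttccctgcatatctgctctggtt

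In the Mkks and Zfp712 sequences the middle of the motif lay 0.5 bp from the summit, and in Dpf3 4.5 bp. The Lrrc10 sequence held 2 matches, both as CTGTCA, the nearer 13.5 bp from the summit. In Pabpn1 the motif overlapped the longer PBX-MEIS motif TGATTGAC, whose closing TGAC is the beginning of TGACAG. The Mylk3 sequence, under a peak of strength 107, held no TGACAG, and neither did that of the shared peak of Tnnt2. Among the 240 members for which 61 such bases could be read, 90 (37.5%) held at least 1 match, 50 of the matches as TGACAG and 48 as CTGTCA on the strand of the gene.

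The 10 strongest members ran from a strength of 230 to 290. Cacna1c, which encodes the pore-forming subunit of the cardiac L-type calcium channel, had the highest strength of all 2056 Meis1 promoter peaks, 290, at a peak on chromosome 6 from 119196467 to 119196735 (mm10), 58 bp upstream of the start site. Cacnb2, an auxiliary subunit of the same channel, had a strength of 285 at a peak 785 bp upstream. Each of these genes had a weaker second member, of strength 57.3 at Cacna1c and 48.5 at Cacnb2. Lrrc10, a cardiac leucine-rich repeat protein, had a strength of 286 at a peak that covered its start site. Nrap, an actin-binding protein of muscle, had a member of strength 237 and another of 27.2. Apobec2, a muscle member of the cytidine deaminase family, had a strength of 276.

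The other 5 of the 10 strongest members were those of Tfpi (257), an inhibitor of coagulation, Sh3kbp1 (249), an adaptor of receptor endocytosis, Ubl3 (248), a ubiquitin-like protein, Galnt15 (241), a glycosyltransferase, and Aph1b (230), a subunit of gamma-secretase. The strongest shared promoter peak was that of Mef2a, a transcription factor of muscle, at 235, between Nrap and Aph1b in the order of strength. It was followed by the RIKEN gene 1700096K18Rik at 200.6, Tnnt2, which encodes cardiac troponin T, at 179, Ssbp2 at 178 and Depdc1b at 176. Of the 10 strongest Meis1 promoter peaks 9 were thus members, and of the 20 strongest 17 were.

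Over the whole sets the typical member was weaker than the typical shared peak. Strength was a median of 22.2 in members (quartiles 17.9 and 34.1, range 15.6 to 290), 26.4 in shared promoter peaks (19.7 and 37.4, up to 235) and 18.5 in Meis1 peaks outside promoters (16.7 and 23.7, up to 552). The ranges overlap almost fully. When the 2056 promoter peaks were divided into 5 classes by strength, members made up 58.9% (exact binomial 95% interval 54.0 to 63.7) of the strongest class, 53.8% (48.8 to 58.7), 64.2% and 65.9% of the next classes, and 75.2% (70.8 to 79.3) of the weakest. The share of members was thus highest in the weakest class, and the share among the 20 strongest peaks rests on few peaks. Of the whole Meis1 list, the 1000 strongest peaks included 4.28% of members and 3.74% of shared promoter peaks, whereas the strongest 10% included 15.4% of members and 19.5% of shared promoter peaks. Widths did not separate the sets, since 92.4% of members and 93.9% of shared promoter peaks had the list's usual width of 284 bp.

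**Figure D1:**
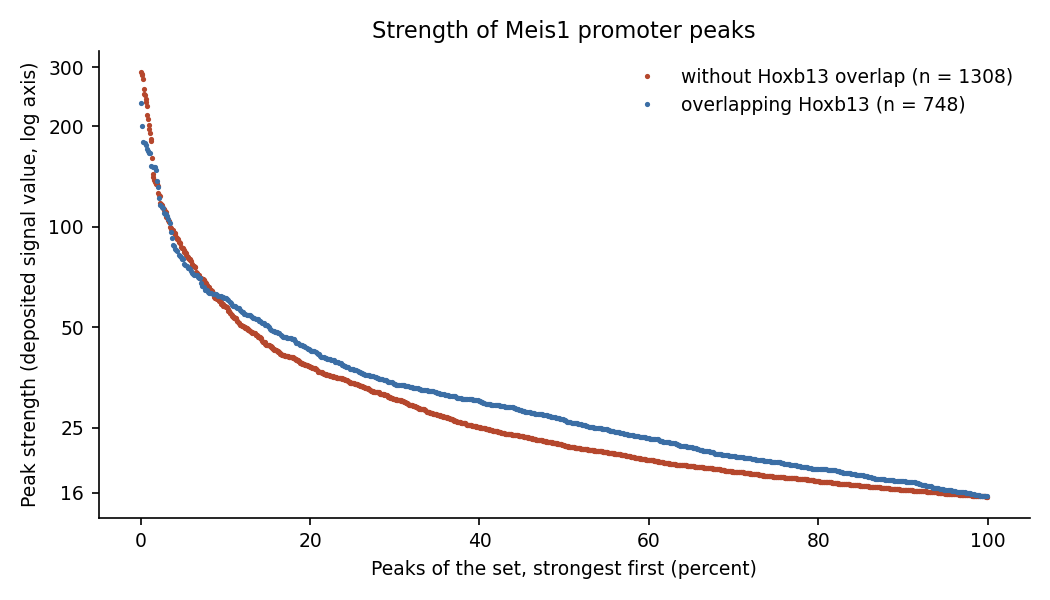
Peak strength (deposited signal value, log axis) of every Meis1 promoter peak, ordered from the strongest on the left as a percent of its set, for the 1308 peaks without Hoxb13 overlap and the 748 that overlap Hoxb13. The first set starts higher, at 290 against 235, and runs below the other through the middle, with medians of 22.2 and 26.4.

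Members lay farther from the start site than shared peaks. The median distance from summit to start site was 233 bp in members and 143.5 bp in shared promoter peaks. The peak itself covered the start site in 455 members (34.8%, exact binomial 95% interval 32.2 to 37.4), against 361 shared peaks (48.3%, 44.6 to 51.9). Summits more than 500 bp away were found upstream in 197 members (15.1%, 13.2 to 17.1) and downstream in 203 (15.5%, 13.6 to 17.6), against 46 (6.15%, 4.54 to 8.12) and 48 (6.42%, 4.77 to 8.42) shared peaks. The choice of members used the positions of both factors, so these differences are tied to it and no test was made. Strength changed little with position among members, with medians of 22.9 where the peak covered the start site, 22.6 upstream and 20.7 downstream.

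**Figure D2:**
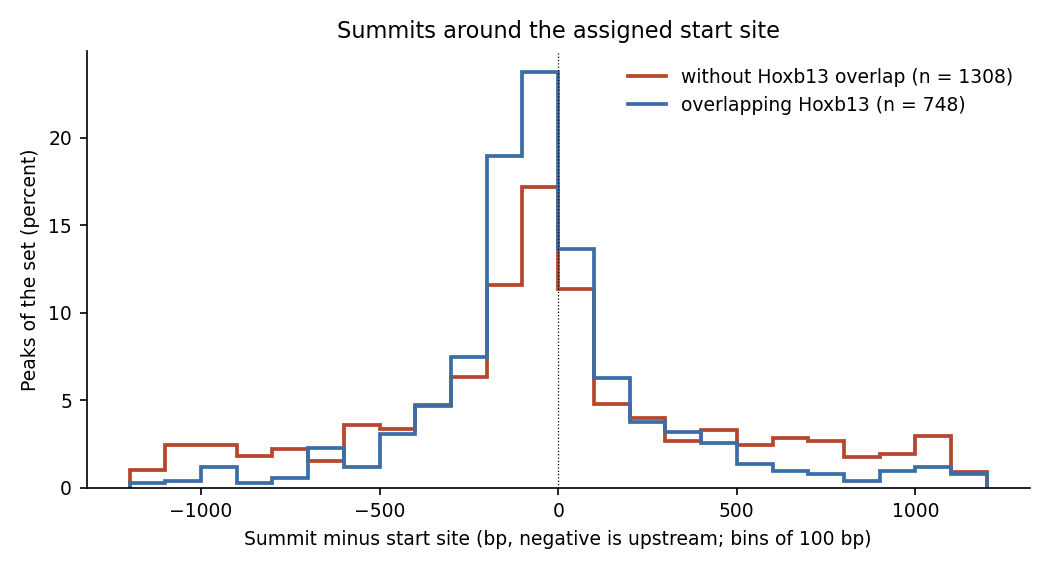
Distance from peak summit to the assigned start site (bp, negative upstream, bins of 100 bp) as a percent of the 1308 peaks without Hoxb13 overlap and of the 748 that overlap Hoxb13. Both sets peak just upstream of the start site, and the first has more peaks beyond 500 bp on either side, 15.1% upstream and 15.5% downstream against 6.15% and 6.42%.

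Strong members were among the outer positions. Klf15, a transcription factor that restrains cardiac hypertrophy, had a member of strength 137 at 912 bp downstream of the start site, and Npas2, a paralogue of Clock, had a member of strength 111 at 857 bp downstream. The farthest members lay 997 bp downstream of the starts of Pik3r1 (strength 41.4), a regulatory subunit of phosphoinositide 3-kinase, and Ppp3r1 (32.3), the regulatory subunit of calcineurin. Acot8 (24.2), a thioesterase of peroxisomes, followed at 995 bp. The nearest Meis1 peak outside the promoter class lay 1002 bp from a start site, so the limit passes through an unbroken range of distances.

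Lack of overlap did not always mean that Hoxb13 was far away. A Hoxb13 peak lay within 100 bp of 117 members (8.94%), within 500 bp of 304 (23.2%), within 10000 bp of 577 (44.1%) and within 100000 bp of 1098 (83.9%), with a median gap of 14709 bp. Among Meis1 peaks outside promoters, 96.7% overlapped no Hoxb13 peak. Their median gap was 67347 bp (quartiles 18258 and 174417), with overlap counted as a gap of 0. Shares for random places in the genome were not computed, so the wider distances cannot be read as a trait of members. The counts had a first high at gaps of 100 to 1000 bp (260 members) and a higher one at 10000 to 100000 bp (521). By gene, 449 members (34.3%) belonged to a gene that had a Hoxb13 promoter peak, at the same or another start site. A further 281 (21.5%) belonged to a gene with Hoxb13 peaks outside its promoter only, and 578 (44.2%) to a gene with no Hoxb13 peak assigned to it. A Hoxb13 peak assigned to another gene can still lie close, as at Dll4, with a gap of 109 bp. Of the shared peaks, which overlap Hoxb13, 16 (2.14%) also belonged to a gene with no assigned Hoxb13 peak. Among all protein-coding genes 30.7% had a Hoxb13 promoter peak.

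**Figure D3:**
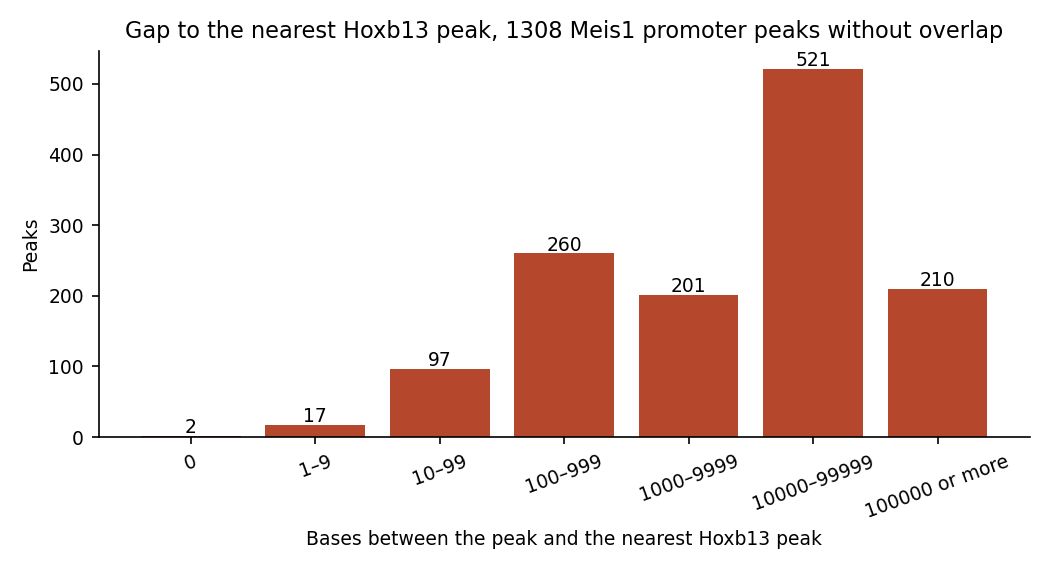
Number of Meis1 promoter peaks without Hoxb13 overlap by the number of bases to the nearest Hoxb13 peak, in classes that widen 10-fold. The class that starts at 10000 bases holds the most, 521, and a lesser high of 260 stands in the class that starts at 100 bases.

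Strong members were found both beside and far from Hoxb13. At Lrrc10 the nearest Hoxb13 peak began 95 bp away, at Aph1b 50 bp and at Cacna1c 203 bp, the second Cacna1c member lying 18 bp from the same Hoxb13 peak. Sh3kbp1, 715 bp from a Hoxb13 peak, and Galnt15, at 886 bp, also had a Hoxb13 promoter peak of their own. At Apobec2, Tfpi and Nrap the gene had no Hoxb13 peak, and the nearest in the genome lay 13281, 44444 and 18392 bp from the strongest member. The same held for Camk2a (strength 201.5), a calcium-dependent kinase, and Mkks (143), a chaperonin-like protein, with gaps of 51442 and 149922 bp.

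At the edge of the rule the sets met without a break. Elac1 (strength 62.0), a transfer RNA processing enzyme, and Gtf2i (18.3), a general transcription factor, abutted a Hoxb13 peak with a gap of 0 bp, and Mesd (20.9), a chaperone of lipoprotein receptors, lay 1 bp away. On the other side the shared peaks of Zfp68 (171), Mir1b (168) and Gtpbp2 (70.2) overlapped Hoxb13 by 2 bp each. In all, 19 members lay within 10 bp of a Hoxb13 peak and 13 shared peaks overlapped by at most 10 bp. With Hoxb13 peaks widened by 500 bp on each side the members would number 1004 (48.8%), and if peaks counted as shared only with summits within 100 bp they would number 1799 (87.5%).

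Most members belonged to protein-coding genes, 1191 (91.1%) against 702 shared promoter peaks (93.9%), and 91 (6.96%) belonged to genes for long non-coding RNAs, against 29 (3.88%). In total 1256 genes had a member, 51 of them more than 1, and 41 genes had a member and a shared promoter peak. Among protein-coding genes 5.21% had a member and 3.12% a shared promoter peak. For 605 of the 1256 genes (48.2%) the member was the only Meis1 peak assigned to the gene, and 182 (14.5%) had at least 5. Of the genes with a shared promoter peak, 52.8% had 1 Meis1 peak and 12.2% had at least 5. Tns2, a tensin of cell adhesions, had the most members, 3, with strengths of 40.0, 19.3 and 17.3, at 912 bp downstream and 38 and 115 bp upstream of start sites. Speg, a muscle kinase of the junctions where calcium is released, had members of 86.8 and 18.5, and Retreg1, a receptor for degradation of the endoplasmic reticulum, of 124 and 18.9. Sertad4, a protein of the SERTA domain family, had members of 89.2 and 19.2.

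Members at microRNA genes numbered 16 (1.22%), against 14 shared promoter peaks (1.87%). Mir22, known in the mouse heart for a role in hypertrophy, had a member of strength 26.6 at 427 bp upstream of the hairpin, on chromosome 11 from 75463006 to 75463289, and its host gene Mir22hg had a member of 32.1 just before it. The strongest of the class was the peak at the start of Mir7117, with a strength of 210. Mir22 was picked after these values were seen, for its known role. Its mature arms, from RefSeq (GRCm38.p6), are printed with the seed, bases 2 to 8, in capitals.
mmu-miR-22-5p: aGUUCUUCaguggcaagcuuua
mmu-miR-22-3p: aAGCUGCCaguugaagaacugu

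Genes were then counted in 23 lists of 706 genes in all, of which 74 (10.5%) had a member and 56 (7.93%) a shared promoter peak. Both are above the shares over all protein-coding genes, 5.21% and 3.12%. The lists were put together with earlier results of these data known, so their shares are given as a description without a test.

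TALE homeobox genes had the highest share of the 23 lists, with members at 7 of 18 genes (38.9%) and shared promoter peaks at 2 (11.1%). Meis1 itself had a member of strength 97.4, on chromosome 11 from 19018575 to 19018677, 292 bp downstream of its start site and 579 bp from a Hoxb13 peak. Pknox2, a relative of Meis1, had a member of 58.1, and Meis2 had members of 44.5 and 19.1. Among the others were Tgif1, Pknox1, which also had a shared peak, and Irx3, the last counted also among cardiac transcription factors. The range in this list was 17.6 to 97.4. Of the 18 genes 12 had a Hoxb13 promoter peak, among them 5 of the 7 with a member, and the other 2 with a member had none. Of the 39 Hox genes, none had a member or a shared promoter peak, and the Hoxb13 gene had no peak of either factor.

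Genes of the contractile apparatus followed, with members at 11 of 40 sarcomere genes (27.5%) and shared promoter peaks at 7 (17.5%). With Hoxb13 peaks widened by 500 bp there were 6 such genes, and without genes that had a Hoxb13 promoter peak 4. Mylk3, the cardiac kinase of myosin light chains, had members of strength 107 and 50.3 at separate start sites. Mybphl, a relative of myosin-binding protein C, had a member of 61.5 and Synpo2l, a protein of the Z-disc, of 47.9. The other 8 genes were Actn2, Cryab, Ttn, Ankrd1, Ldb3, Myh7b, Myl3 and Csrp3, with strengths of 15.6, at Ldb3, to 46.5, at Actn2. Ttn, which encodes the giant protein titin, had a member of 22.7 and was the gene of this list with both kinds of peak.

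Calcium handling and ion channel genes had members at 5 of 36 (13.9%), against shared promoter peaks at 1 (2.78%), that of the potassium channel Kcnh2. The count of 5 was 2 with Hoxb13 peaks widened by 500 bp, and 2 without genes that had a Hoxb13 promoter peak. Besides Cacna1c and Cacnb2 these were Slc8a1, the sodium-calcium exchanger, with a strength of 58.1 at a peak that covered the start site, Jph2, a protein that holds calcium release junctions together, and Hrc, a calcium-binding protein of the sarcoplasmic reticulum. The median strength over the 7 members of this list was 57.3, above the 22.2 of all members, and it rests on the channel subunits and Slc8a1, since Jph2 had 28.0 and Hrc 19.2. Calcineurin and NFAT genes had members at 3 of 23 (13.0%), namely Ppp3r1 (32.3 and 17.7), Dyrk1a (30.4), a kinase that opposes NFAT, and Rcan2 (18.5), a regulator of calcineurin, against shared promoter peaks at 2. With widened Hoxb13 peaks 1 of these genes had a member, and without genes that had a Hoxb13 promoter peak 0 did.

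Fatty acid oxidation genes had members at 6 of 37 (16.2%), or 3 with Hoxb13 peaks widened by 500 bp, against shared promoter peaks at 5 (13.5%). Ppargc1a, a coactivator of mitochondrial genes, had members of 86.2 and 22.98, Etfdh, which passes electrons from fat oxidation to the respiratory chain, had a member of 42.0 and Pnpla2, a triglyceride lipase, of 40.7. Ppara, Cpt1b and Pdk4 were the other genes. Oxidative phosphorylation genes had members at 3 of 36 (8.33%) and shared promoter peaks at 10 (27.8%). The members were those of Sdhb (22.7), Atp5g1 (20.9) and Cyc1 (18.4), none of them strong, and Atp5g1 and Cyc1 had a shared peak as well. All 3 genes had a Hoxb13 promoter peak, so 0 had a member without such genes. Glycolysis and hypoxia genes had members at 3 of 33 (9.09%), against shared promoter peaks at 5 (15.2%), the members being those of Pfkl (53.6), Pdk1 (30.9) and Eno3 (21.6). A Hoxb13 promoter peak was found at 26 of the 37 fatty acid oxidation and 32 of the 36 oxidative phosphorylation genes. It was found at 27 of the 33 glycolysis and hypoxia genes, against 30.7% of all protein-coding genes.

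Cardiac transcription factors had members at 8 of 38 (21.1%), against shared promoter peaks at 3 (7.89%). After Klf15 the strongest were Tbx18 (41.2), a factor of the sinus node and epicardium, and Myocd (32.7), a coactivator of muscle genes that is also in the smooth muscle list. Tbx3, Srf, Smyd1, Mkl1 and Irx3 completed this group, and Mef2a, Nkx2-5 and Mef2d had shared peaks. Circadian clock genes had members at 4 of 24 (16.7%), against 1 shared, that of Per3. They were Npas2 (111), Clock (95.5), Rorb (53.1) and Tef (20.9), with a median strength of 74.3. Npas2 and Clock encode alternative partners of Bmal1. Chromatin modifiers had members at 5 of 40 (12.5%), against 2 shared, and the strongest were Setd7 (27.5) and Smyd2 (18.4), both methyltransferases, and Tet2 (22.99), an enzyme of DNA demethylation. Without genes that had a Hoxb13 promoter peak, 4 cardiac transcription factors, 2 clock genes and 2 chromatin modifiers had a member. With the stronger 50% of the Meis1 list 2 chromatin modifiers did.

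Activators of the cell cycle had members at 4 of 38 (10.5%) and no shared promoter peak, with Cdc6 (25.01), a licensing factor of replication, Cdc25b (24.9), a phosphatase that triggers mitosis, Mcm2 (17.6), a helicase subunit, and Cdk6 (16.1). Inhibitors and p53 targets had members at 4 of 34 (11.8%), against shared promoter peaks at 2, Cdkn1b and Btg1. Rbl2, a pocket protein of the retinoblastoma family, had members of 59.6 and 33.3, Cdkn1a, an inhibitor of cyclin-dependent kinases, had a member of 17.9 and Gadd45b of 17.6, and Rb1 was the remaining gene. In the stronger 50% of the Meis1 list 2 activators and 1 inhibitor had a member, and without genes that had a Hoxb13 promoter peak 2 inhibitors did. Hippo and growth factor signalling genes had members at 3 of 33 (9.09%), against 1 shared. Without genes that had a Hoxb13 promoter peak 0 of them had a member. Akt2, a kinase of insulin signalling, had members of 77.1 and 30.5, Spry1, an inhibitor of receptor tyrosine kinase signalling, of 41.1, and Fgf1, a growth factor, of 18.6.

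Splicing and RNA-binding genes had no member among 34 genes, against shared promoter peaks at 7 (20.6%). AP-1 and immediate early genes had a member at 1 of 28 (3.57%), that of Klf4 (19.4), against shared peaks at 7 (25%), which included Jun and Fosb. Ribosomal protein genes had members at 2 of 47 (4.26%), Rps19 (25.4) and Rpl27 (16.1), near the 5.21% of all protein-coding genes, against a shared peak at 1 (2.13%). A Hoxb13 promoter peak was found at 28 of the 34 splicing, 22 of the 28 AP-1 and 37 of the 47 ribosomal protein genes. The part of this in the counts of members and shared peaks was not tested.

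Markers of other cell types were counted in the same way. Endothelial genes had members at 2 of 27 (7.41%), Ephb4 (98.3) and Dll4 (44.3), which encode a receptor and a ligand of vessel identity. With Hoxb13 peaks widened by 500 bp 0 endothelial genes had a member. Smooth muscle and pericyte genes had members at 2 of 17 (11.8%), Myocd and Smtn (15.7), fibroblast genes at 1 of 26 (3.85%), Thy1 (17.9), and neuronal genes at 2 of 24 (8.33%), Camk2a (201.5) and Map2 (19.7). None of the 25 leukocyte and 23 hepatocyte genes had a member or a shared promoter peak. Leaving out genes that also had a Hoxb13 promoter peak took the number of list genes with a member to 33, and widening Hoxb13 peaks by 500 bp took it to 49, against 74.

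**Figure D4:**
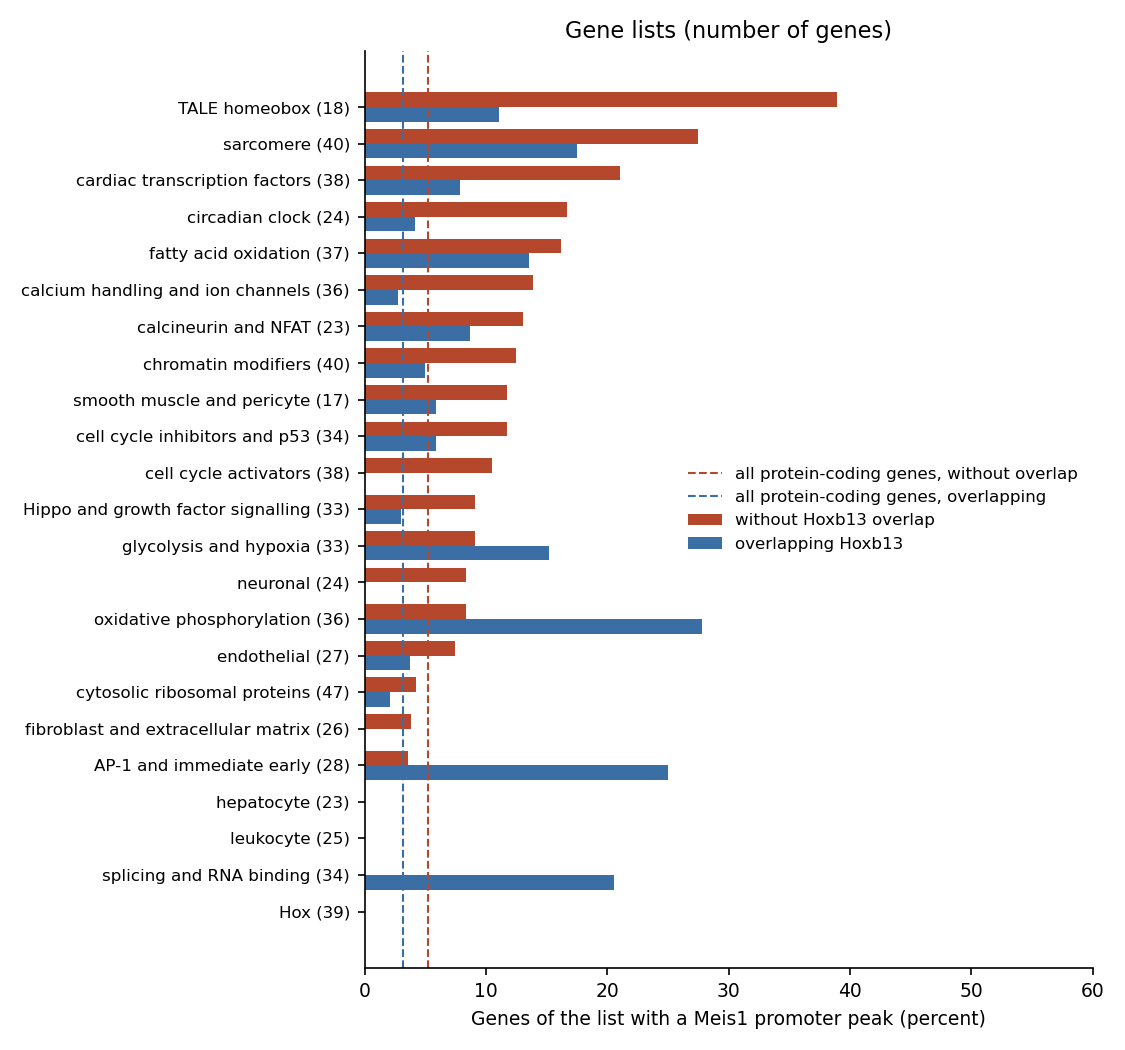
Percent of genes in each list (number of genes in parentheses) with a Meis1 promoter peak without Hoxb13 overlap, the upper bar, or with one that overlaps Hoxb13, the lower bar. Dashed lines give the shares of all protein-coding genes, 5.21% and 3.12%, and TALE homeobox genes lead the first series with 38.9% while oxidative phosphorylation genes lead the second with 27.8%.

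Sequence was the measure that the choice of peaks did not use, and it was compared between members and shared promoter peaks. For 1049 members (80.2%) and 616 shared peaks (82.4%) RefSeq holds the promoter of the assigned gene, 250 bases before to 50 bases after its start. These windows were searched on both strands for 14 motifs, and the shares were tested two-sided with Fisher's exact test, adjusted by Benjamini-Hochberg over 15 comparisons. The Meis1 motif TGACAG was less frequent in promoters of members (317, or 30.2%) than in those of shared peaks (236, or 38.3%), with an odds ratio of 0.697 and an adjusted exact p of 0.00155, and both shares were above the 19.2% of all 32851 RefSeq promoters. The longer PBX-MEIS motif TGATTGAC, whose last 4 letters can be the first 4 of TGACAG, was found in 20 (1.91%) and 33 (5.36%), against 0.770% of all promoters (adjusted exact p = 0.000557). With the stronger 50% of each set the TGACAG call was lost (39.1% and 45.6%, adjusted exact p = 0.254). The PBX-MEIS call was lost in windows reaching 25, 50 and 100 bp to either side of the summit, at 3.49%, 3.93% and 5.06% of members against 4.76%, 7.12% and 9.76% of shared peaks (adjusted exact p = 0.775, 0.518 and 0.414).

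This difference in TGACAG was not seen where the promoter window held the summit. The window held the summit for 374 of the 1049 members and 349 of the 616 shared peaks, so it missed the summit more often in members. Where it held the summit, the motif was present in 54.5% and 53.9% (odds ratio 1.03, adjusted exact p = 0.881). The part of the missed summits in the difference over all windows was not tested. In a window reaching 50 bp to either side of the summit, which RefSeq windows cover for 280 members (21.4%) and 281 shared peaks (37.6%), it was present in 44.6% and 45.6% (odds ratio 0.964, adjusted exact p = 1), against 6.72% of windows of that length from the middle of all RefSeq promoters. These windows cover only peaks close to a start site, and a p above the threshold does not show that the sets are alike.

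Around the summit the motif was concentrated in the same narrow range in both sets. Within 25 bp of the summit there were 8.12 matches of TGACAG per 1000 positions in members and 8.14 in shared peaks. Between 25 and 50 bp the values were 2.34 and 1.69, and between 125 and 150 bp they were 0.472 and 0.617. The motif was more frequent under stronger peaks. Within 25 bp of the summit, it was found in 53.5% of the strongest of 3 equal classes of members with such a window, in 35.7% of the middle class and in 20.0% of the weakest, against 59.8%, 33.0% and 21.4% in shared peaks. Of 151 matches within 25 bp of a member's summit, TGACAG was followed by C in 40.4% and by G in 41.7%, against 44.1% and 40.6% of 143 matches in shared peaks. Farther from the summit C and G followed in 37.6% and 32.1% of 109 matches in members, and in 37.5% and 30% of 80 in shared peaks.

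**Figure D5:**
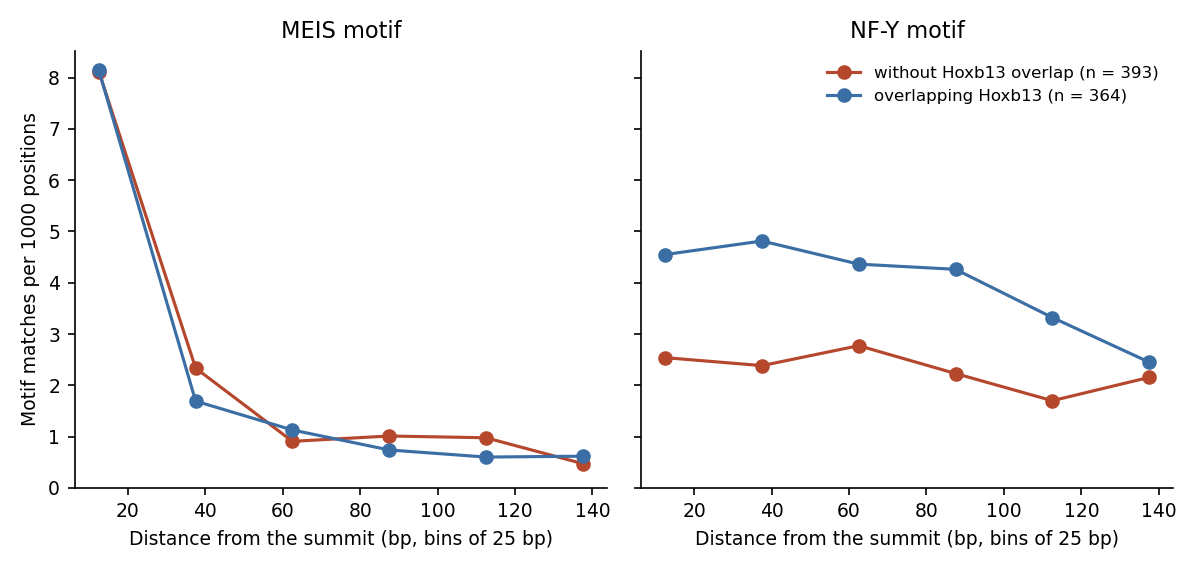
Matches of the MEIS motif and of the NF-Y motif per 1000 positions, by distance from the summit in bins of 25 bp, for 393 peaks without Hoxb13 overlap and 364 that overlap Hoxb13. The MEIS motif falls from 8.12 and 8.14 per 1000 positions in the innermost bin to 0.472 and 0.617 in the outermost, while the NF-Y motif is at 2.54 in the first set and 4.55 in the second in the innermost bin, and at 2.15 and 2.45 in the outermost.

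Over the promoter window, motifs linked to Hoxb13 were more frequent in members than in shared peaks, but the share in members did not exceed that of all promoters. The motif TTTATNG, like that of Hoxb13, or the PBX-HOX motif TGATTNAT was found in 130 promoters of members (12.4%) and 49 of shared peaks (7.95%), against 13.4% of all promoters (odds ratio 1.64, adjusted exact p = 0.00869). This call was lost with the stronger 50% of each set (8.86% and 7.55%, adjusted exact p = 0.687) and with Hoxb13 peaks widened by 500 bp (12.2% and 9.39%, adjusted exact p = 0.0940). Within 50 bp of the summit the shares were 3.21% and 3.20%. When promoters were divided into 3 classes by GC content, the shares were 20.4% and 11.8% in the class with the least GC. In the middle class the order turned, with 8.75% and 11.1%, and in the highest the shares were 3.87% and 3.69%. TTTATNG can overlap the TATA box TATAAA, read on the other strand as TTTATA, so the TATA box comparison below is not independent of this one.

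Over the promoter window the sets also differed in motifs of common promoter factors. CCAAT, bound by NF-Y, was present in 36.7% of promoters of members and 50% of those of shared peaks, near the 37.4% of all promoters in the first set (odds ratio 0.580, adjusted exact p = 1.07e-06). Within 50 bp of the summit it was present in 22.5% and 37.4% (adjusted exact p = 0.00225), while with the stronger 50% of each set the call was lost (40.5% and 49.7% of promoters, adjusted exact p = 0.0738). GGGCGG, bound by SP factors, was present in 53.7% and 71.6%, against 35.7% of all promoters (adjusted exact p = 4.96e-12). The ETS motif CCGGAAG was present in 11.8% and 20.0%, against 8.86% of all promoters (adjusted exact p = 3.33e-05). For the NRF1 motif GCGCANGC the shares were 14.7% and 21.6%, against 9.95% of all promoters (adjusted exact p = 0.000782). Around the summit these calls were mostly lost. GGGCGG passed within 50 bp (33.2% and 44.8%, adjusted exact p = 0.0419) and not within 25 or 100 bp (adjusted exact p = 0.775 and 0.414). CCGGAAG did not pass within 25, 50 or 100 bp (adjusted exact p = 0.775, 0.896 and 0.778). Neither did GCGCANGC (adjusted exact p = 0.834, 0.896 and 0.555), whose direction turned within 50 bp, at 8.21% of members and 6.41% of shared peaks.

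The TATA box TATAAA was present in 12.01% of promoters of members and 5.36% of those of shared peaks, against 13.6% of all promoters (odds ratio 2.41, adjusted exact p = 2.91e-05). The GATA motif AGATAA was present in 10.0% and 4.71%, against 11.2% of all promoters (odds ratio 2.25, adjusted exact p = 0.000247). For both motifs the share in members was thus below that of all promoters. Both calls were lost within 25, 50 and 100 bp of the summit, with adjusted exact p of 0.775, 0.363 and 0.326 for TATAAA and 0.775, 0.529 and 0.555 for AGATAA. For TEAD (GGAATG), AP-1 (TGANTCA), MEF2 (CTATTTNTA), the E-box CACGTG and PBX-HOX alone, adjusted exact p was 0.0546, 0.220, 0.211, 0.658 and 0.278. A match is a run of letters, not a bound site.

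Base composition moved with these differences. The median GC content of the promoter windows was 57.3% in members, 62.3% in shared peaks and 52.7% in all RefSeq promoters. The ratio of observed to expected CpG had medians of 0.613, 0.799 and 0.384, and it was under 0.4 in 378 members (36.0%) and 54 shared peaks (8.77%), against 51.4% of all promoters. Within the 3 classes by GC the CCAAT shares were 37.8%, 39.7% and 31.7% in members from the lowest to the highest class, against 58.2%, 56.2% and 41.3% in shared peaks, so this difference kept its direction in each. For TGACAG the classes gave 27.9%, 35.6% and 27.8%, against 42.7%, 39.1% and 35.8%. For GGGCGG they gave 20.9%, 65.3% and 91.9%, against 33.6%, 67.2% and 90.8%, so the direction turned in the highest class. The part of composition in the other motif differences was not tested.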

How the data were processed

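Chromatin precipitated with antibodies to Meis1 or Hoxb13, and input chromatin, was sequenced in 12 libraries, 4 groups of 3. The submitters' processing notes name deepTools 1.6, ChIPseeker, Bowtie2 2.2.3 and Picard and the build mm10, with no role or order. Not given in the sources used here are how peaks were called, at which threshold, and how libraries were joined into 1 list. The authors deposited 1 annotated peak list per factor. The deposited signal value of each peak, here called peak strength, has only a column number per the file headers, and so has a deposited score, which was used in no result. Strength ranks or describes peaks within a list only. Meis1 peaks mostly span 284 bp and Hoxb13 peaks 396 bp. Read depth is unknown.

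Peaks of the promoter class were divided by overlap of at least 1 bp with the Hoxb13 list, after overlap and motif search had been tested on simulated data (Python 3.11.15, scipy 1.17.1). Gaps, distances and gene lists are described without a test. Shares have exact binomial 95% intervals, which cover counting error only. Motif shares were tested two-sided with Fisher's exact test, adjusted by Benjamini-Hochberg with a threshold of 0.05. Promoters and microRNAs are from RefSeq (GRCm38.p6). No genome was used, so the promoter of the assigned gene was the main window and windows around the summit were alternatives. Several peaks of a gene can share a window (1017 windows for 1049 members). The members and lists were chosen with earlier results of these data known. Named genes are those of the 10 strongest members, up to 3 per list by strength, up to 8 with the most members, those at the edges of the rule, the 5 strongest with a Hoxb13 promoter peak elsewhere or with no Hoxb13 peak, the 5 strongest shared peaks, and Meis1 and Hoxb13. Other list genes with a member were named after their values were seen. Input libraries entered no comparison.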

Additional observations from a re-analysis of the deposited data

How the results depend on the processing

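The share of Meis1 promoter peaks without Hoxb13 overlap was 63.6% and moved with the definition of overlap. It was 87.5% with summits within 100 bp as the criterion, 84.1% with a reciprocal overlap of 50%, 72.6% with Hoxb13 peaks cut to 100 bp either side of the summit, 72.4% with the stronger 50% of the Hoxb13 list and 48.8% with Hoxb13 peaks widened by 500 bp. It was 59.5% in the stronger 50% and 57.9% in the strongest 10% of the Meis1 list, and 59.6% within 500 bp of a start site. The median strength was 21.4 instead of 22.2 with widened Hoxb13 peaks, an alternative chosen after seeing the data. The median distance was 98.5 bp by the deposited distance, measured from the peak's edge, and 233 bp from the summit. Of the list genes 74 had a member, 54 with the stronger 50% of Meis1 peaks, 49 with widened Hoxb13 peaks and 33 without genes with a Hoxb13 promoter peak. The odds ratio for TGACAG (0.697) was 0.928, 0.964 and 1.08 in windows reaching 25, 50 and 100 bp to either side of the summit, 1.03 where the window held the summit and 0.766 in the stronger 50% of each set, and none of these passed the test. With widened Hoxb13 peaks it was 0.769 and the call was kept (adjusted exact p = 0.0234). The odds ratio for TTTATNG or TGATTNAT (1.64) was 0.484, 1.00 and 1.67 in the summit windows, 1.70 where the window held the summit, 1.19 in the stronger 50% and 1.35 with widened Hoxb13 peaks, and none of these passed. Both calls were kept with only the strongest peak of each gene, chosen after seeing the data (odds ratios 0.706 and 1.65). For CCAAT the direction held in 7 alternatives, also chosen then, with odds ratios of 0.428 to 0.688 beside 0.580, and the call was lost within 25 bp of the summit (0.584) and in the stronger 50% (0.688). The summit windows hold fewer peaks, which lowers the power of a test, and the cause of the other changes was not tested. No paired analysis was possible because each list gives 1 value per peak over 3 libraries and the factors share no replicate number. Leaving out a library was not run for the same reason. Without read counts no limit from depth can be given.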
